A study of Mus musculus with 30 samples.

Results

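Whole retinas of mice with 1 *R90W* allele of *Crx* (*R90W/+*) were compared with wild-type (WT) retinas at postnatal day (P) 10. The comparison used 6 of the 30 RNA-seq libraries of the study, 3 of each genotype, and 11995 of the 12573 genes in the deposited table, namely those with at least 5 CPM (the reads on a gene relative to all reads counted on genes of that library, on the usual CPM scale) in all 3 libraries of either group. All mice were of the C57BL6/J strain, and the *R90W* allele was a knock-in present in every cell. By the study's methods each library was a pool of 4 retinas from 1 male and 1 female mouse. The same comparison at P21 (*R90W/+* and WT, 3 libraries each) and homozygous *R90W/W* retinas at P10 (3 libraries) are used only to place the P10 values. The WT mice of P21 were littermates of mutants, which the sources used here do not say of WT mice of P10, so that litter and genotype cannot be told apart at P10. In whole retina, fewer cells of a type and less RNA per cell cannot be told apart in any value below.

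CRX is a homeodomain transcription factor made in rods and cones, the cells of the retina that detect light. It binds short sites near photoreceptor genes and, together with other factors, turns on the genes for phototransduction, the outer segment and the visual cycle as these cells mature. At P10 mouse photoreceptors are still building their outer segments, and at P21 the retina is close to its adult state. Mutations of human CRX cause retinal diseases, and *R90W* replaces an arginine of the homeodomain with tryptophan.

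The codon of that arginine is printed because it is where the genotypes differ by design. *Crx* lies on the minus strand of chromosome 7 in NCBIM37 (mm9), and codon 90 is in coding exon 3 of 3, at chr7:16453759-16453761. The 27 reference bases around it, at chr7:16453747-16453773 on the coding strand, have codon 90 in capitals.

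*Crx*, codon 90: tggttcaagaatCGTagggcgaaatgc

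Reads of the WT and mutant alleles are not separated in the gene values. *Crx* was at 1539, 1601 and 1481 CPM in the WT libraries and at 1784, 1700.2 and 1667 CPM in *R90W/+*. Every *R90W/+* library was above every WT library, but the log2 ratio of 0.16 ± 0.05 (± SE, n = 3 in each group) did not pass the test (limma FDR = 0.077). With limma-voom on whole reads rebuilt from the CPM, *Crx* passed with the same ratio (FDR = 0.043).

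By the smallest step between CPM values, the libraries held 13904700 to 17129600 reads on genes in WT and 16649400 to 20269000 in *R90W/+*, so that 5 CPM stood for 69.5 to 101 reads. Libraries of *R90W/+* stood apart from each other in 2 respects. Replicates A, B and C had 2868, 1324 and 1563 CPM of *Xist*, which females express, and 15.2, 34.5 and 33.7 CPM of the Y-linked *Kdm5d*, beside 1794, 1810.1 and 1671 and 33.0, 32.3 and 30.9 CPM in WT. Replicate A was thus set apart by more *Xist* and less *Kdm5d* than any other of these libraries. The lens crystallin gene *Cryaa* was at 1.37, 8.71 and 604 CPM in *R90W/+* and at 0.69, 0.36 and 1.46 CPM in WT, so that replicate C held lens RNA.

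Small shifts made up most of the difference between the genotypes. CPM were tested as log2(CPM + 0.1) with limma, with p-values adjusted over all tested genes to a false discovery rate (FDR), and 0.05 was the limit for a call. A total of 1405 genes were called, 11.7% of those tested, of which 751 (6.26%) were lower and 654 (5.45%) higher in *R90W/+*. A threshold of 2-fold in addition left 30 genes (0.25%), 20 lower (0.167%) and 10 higher (0.0834%). Lower and higher calls were nearly even below 1.25-fold (380 and 374 genes), and lower calls were more numerous at 1.25 to 1.5-fold (261 and 215) and at 1.5 to 2-fold (90 and 55). The smallest change called was 1.11-fold in either direction.

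**Figure D1:**
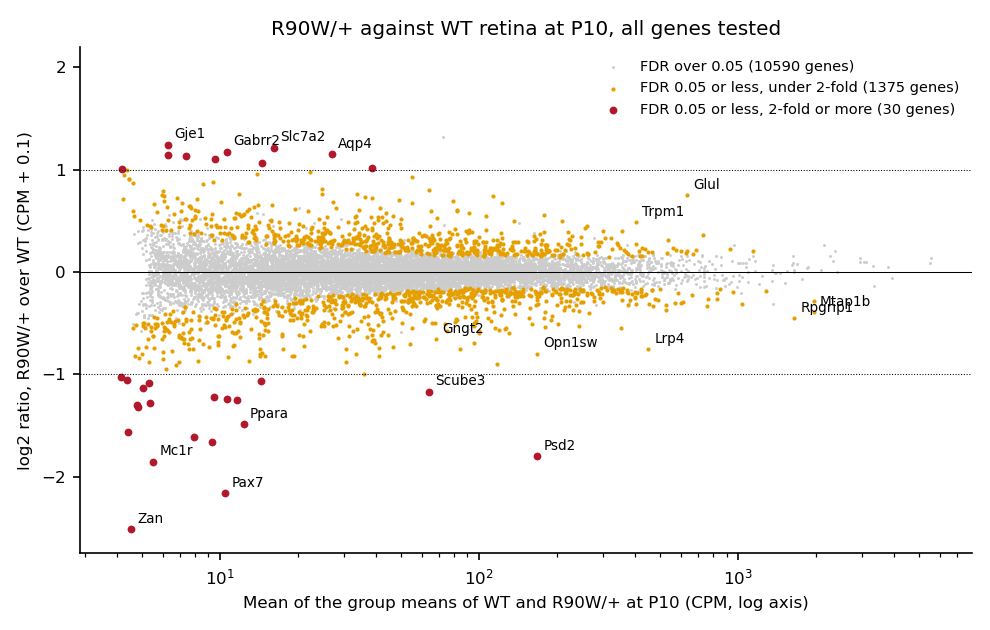
Log2 ratio of *R90W/+* over WT at P10 (y axis) against the mean CPM of both groups (x axis, log scale), 1 point for each of 11995 genes, grey over the FDR threshold, orange past it under 2-fold and red past it at 2-fold or more. The 30 red genes lie at low to middle levels, and the called genes at high levels lie under 2-fold.

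The median log2 ratio to the WT mean over the 751 lower genes was -0.31, -0.32 and -0.31 in replicates A, B and C, and over the 654 higher genes it was 0.25, 0.32 and 0.32. The test that chose these genes favours mutant libraries that are alike, so these medians are a description. The median ratio over all tested genes was 0.00093. Groups did not overlap in 744 of the 751 lower genes and in 644 of the 654 higher genes, while 15.8% of all tested genes had every *R90W/+* library below WT and 14.6% had every one above. Without *R90W/+* replicate A 1078 genes were lower and 1062 higher, and leaving out any other single library gave 408 to 542 lower and 344 to 375 higher.

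The gene with the most evidence for a fall was *Psd2*, an exchange factor for the small GTPase ARF6. Its level was 256, 257 and 266 CPM in WT and 73.9, 74.8 and 74.7 CPM in *R90W/+*. The libraries of each group lay close together, and the fall was 3.49-fold (log2 ratio -1.80 ± 0.04, 95% interval -1.90 to -1.71, limma FDR = 1.15e-11). *Psd2* had the highest level of the 20 genes lower at 2-fold, of which 10 were below 10 CPM in both groups.

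*Zan*, which encodes the sperm protein zonadhesin, had the largest fold. It was at 6.96, 8.56 and 7.82 CPM in WT and at 1.21, 1.08 and 1.58 CPM in *R90W/+* (log2 ratio -2.51 ± 0.17, 5.71-fold, limma FDR = 1.74e-06). *Pax7*, a paired-homeodomain factor of muscle and neural precursors, was at 16.5, 17.3 and 17.6 CPM in WT and at 4.67, 3.604 and 3.16 CPM in *R90W/+* (4.46-fold). *Mc1r*, the melanocortin receptor of pigment cells, was at 8.15, 9.06 and 8.82 CPM in WT and at 2.75, 2.16 and 2.12 CPM in *R90W/+* (3.61-fold). In all 3 genes the groups were far apart. The study lists *Zan* and *Mc1r* among its rod-enriched genes.

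*Ppara*, a nuclear receptor that drives fatty acid oxidation, fell from 19.3, 18.7 and 16.6 CPM to 7.74, 5.89 and 5.77 CPM (log2 ratio -1.49 ± 0.12). *Gckr*, the regulator of glucokinase, fell from 16.3, 17.9 and 15.2 CPM to 6.81, 7.39 and 6.36 CPM (-1.25 ± 0.10). The secreted protein gene *Scube3* fell from 89.9, 87.2 and 87.7 CPM to 50.8, 34.4 and 34.4 CPM (-1.17 ± 0.11), with replicate A nearest to WT. The *R90W/+* libraries were below all WT libraries in each of the 20 genes.

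*Spp1* (osteopontin), *Il9r* (a cytokine receptor), *Dock8* (a guanine nucleotide exchange factor) and *Kifc1* (a mitotic kinesin) had log2 ratios of -1.66, -1.57, -1.13 and -1.07. *Rgs20*, a regulator of G protein signalling, was at 12.3, 12.7 and 14.4 CPM in WT and at 3.63, 6.67 and 7.15 CPM in *R90W/+*, and its log2 ratio of -1.22 was -0.91 without replicate A. *Dnm3os* (-1.61) is read from the strand opposite to *Dnm3*, and since counting by strand was not stated, reads of the pair cannot be told apart. The remaining genes were the fatty acid transporter *Slc27a2*, the lysyl oxidase *Loxl4* and 5 genes known by clone or model names (*4933413L06Rik*, *4921511H03Rik*, *Gm13301*, *Gm17327* and *Gm12394*), with log2 ratios from -1.32 to -1.03. Among others, *Zan*, *Pax7*, *Mc1r*, *Spp1*, *Il9r*, *Rgs20*, *Dnm3os*, *Loxl4* and *Slc27a2* reached the filter through WT alone. The same held for *4933413L06Rik*, *4921511H03Rik*, *Gm13301* and *Gm12394*. In such genes the filter favours a fall.

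**Figure D2:**
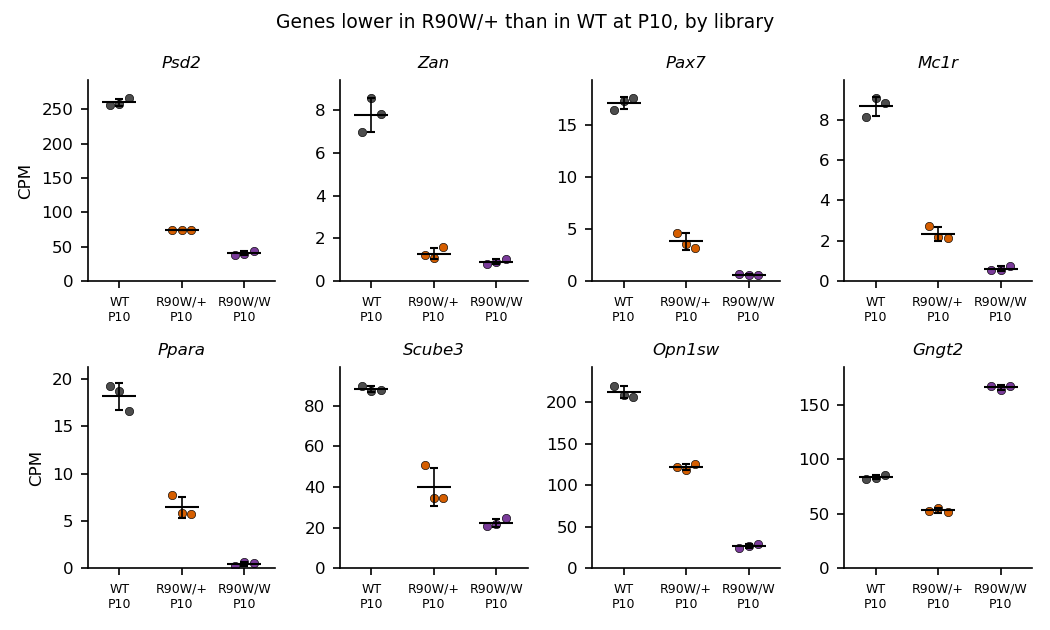
CPM in each library (points, replicates A, B and C from left to right) of 8 genes lower in *R90W/+* than in WT at P10, with the mean and SD of 3 libraries and the *R90W/W* libraries beside them. *R90W/+* lies below WT without overlap in all 8, and *R90W/W* lies below *R90W/+* in all but *Gngt2*, where it lies above.

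The 10 genes higher at 2-fold included genes of glia and of inhibitory signalling. *Aqp4*, the water channel of Müller glia, was at 17.1, 19.3 and 13.7 CPM in WT and at 31.6, 41.4 and 38.3 CPM in *R90W/+* (log2 ratio 1.15 ± 0.12, 2.22-fold, limma FDR = 5.38e-05). *Gabrr2*, a subunit of an ionotropic GABA receptor, was at 6.08, 5.83 and 7.30 CPM in WT and at 10.6, 18.3 and 15.8 CPM in *R90W/+* (1.18 ± 0.17). *Il33*, a cytokine that Müller glia can make, was at 9.78, 10.1 and 8.00 CPM in WT and at 15.6, 20.8 and 22.8 CPM in *R90W/+* (1.07 ± 0.13). All mutant libraries were above all WT libraries in these genes, and replicate A was the lowest mutant library.

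*Gje1*, a connexin family gene, had the largest rise, from 3.51, 3.52 and 4.03 CPM to 10.5, 7.81 and 8.44 CPM (log2 ratio 1.24 ± 0.14). Of the 10 genes, 5 (*Gje1*, *Lin28a*, *Anxa1*, *Col4a3* and *Aldh1a7*) reached the filter through *R90W/+* alone, which favours a rise. *Lin28a*, which encodes an RNA-binding protein that blocks maturation of let-7, rose from 2.63, 3.24 and 2.39 CPM to 5.22, 5.41 and 6.17 CPM (1.004 ± 0.15). Replicate C, the library with lens RNA, was the highest mutant library in *Lin28a* and *Il33*, whose log2 ratios without it were 0.93 and 0.95, past the FDR but under 2-fold. It was also the highest in another 4 genes, namely the amino acid transporter *Slc7a2* (16.6, 18.4 and 33.2 CPM in *R90W/+*), the annexin *Anxa1* (7.91, 6.19 and 17.4 CPM), the basement membrane collagen *Col4a3* (10.99, 6.85 and 22.2 CPM) and the aldehyde dehydrogenase *Aldh1a7* (5.77, 9.31 and 11.4 CPM). Without replicate C the log2 ratios of *Slc7a2*, *Anxa1*, *Col4a3* and *Aldh1a7* went from 1.22, 1.13, 1.104 and 1.15 to 0.91, 0.70, 0.66 and 0.93, and *Col4a3* no longer passed (limma FDR = 0.15). The part of lens RNA in these rises was not tested. *Aldh1a7* has a close paralog in *Aldh1a1*, and *mt-Atp8* (1.02 ± 0.28) shares bases with *mt-Atp6*, so that both values are uncertain. The log2 ratios of *mt-Atp8*, *Kifc1* and *Loxl4* without replicate A were 0.94, -0.95 and -0.82, past the FDR but under 2-fold. Without replicate B *mt-Atp8* did not pass (0.95, limma FDR = 0.10). In limma without a variance trend *mt-Atp8*, *Col4a3* and *Anxa1* did not pass. The groups overlapped in *Col4a3* and *mt-Atp8*.

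Cone phototransduction genes did not move together. Cones use an opsin, the transducin of *Gnat2*, *Gnb3* and *Gngt2*, a phosphodiesterase and cyclic nucleotide channels to turn light into a signal, and arrestin 3 to end it. Of 11 such genes tested, 3 were lower and 1 was higher, and the median log2 ratio was -0.22. The counts of this and every list below stand beside 6.26% lower and 5.45% higher of all genes tested. *Opn1sw*, the short wavelength opsin, was at 219.9, 209 and 206 CPM in WT and at 122, 118 and 126 CPM in *R90W/+*. The groups were far apart, and the fall was 1.74-fold (log2 ratio -0.80 ± 0.05, 95% interval -0.90 to -0.70, limma FDR = 7.98e-07).

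*Gngt2*, the gamma subunit of cone transducin, was at 82.4, 82.6 and 85.6 CPM in WT and at 52.5, 55.3 and 51.6 CPM in *R90W/+* (log2 ratio -0.65 ± 0.05). *Gnat2*, the alpha subunit, was at 60.8, 60.4 and 60.0 CPM in WT and at 46.1, 51.1 and 55.6 CPM in *R90W/+* (-0.25 ± 0.07, limma FDR = 0.026). Both subunits were below WT in every mutant library, while *Slc24a2*, the cation exchanger of cones, was higher (0.26 ± 0.06). The beta subunit gene *Gnb3*, the phosphodiesterase genes *Pde6c* and *Pde6h* and the channel genes *Cnga3* and *Cngb3* had log2 ratios of 0.08, 0.05, -0.09, -0.22 and 0.18 and did not pass.

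Replicate A moved the values of other photoreceptor genes. *Arr3*, cone arrestin, was at 55.9, 66.1 and 54.7 CPM in WT and at 25.4, 47.6 and 49.7 CPM in *R90W/+* (log2 ratio -0.58 ± 0.18, limma FDR = 0.055), and without replicate A its ratio was -0.27 (FDR = 0.016). *Arr3* also passed without *R90W/+* replicate B or C, with log2 ratios of -0.72 and -0.75 (limma FDR = 0.043 and 0.026). *Opn1mw*, the middle wavelength opsin, was at 25.9, 25.03 and 21.1 CPM in WT and at 8.51, 31.2 and 28.5 CPM in *R90W/+*. Its log2 ratio of -0.28 (limma FDR = 0.65) turned to 0.32 without replicate A (FDR = 0.019). *Gnat1*, the alpha subunit of rod transducin, was at 716, 666 and 626 CPM in WT and at 505, 963 and 861 CPM in *R90W/+*, and its log2 ratio went from 0.16 to 0.45 without replicate A (limma FDR = 3.07e-05). In all 3 genes replicate A was the lowest of the mutant libraries.

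Rod phototransduction genes stayed near WT. Of 21 tested, 1 was lower and 0 were higher with limma (1 and 2 at an unadjusted p under 0.05), and the median log2 ratio was 0.04. The lower gene was *Guca1a*, which encodes an activator of guanylate cyclase, at 30.8, 29.7 and 30.6 CPM in WT and at 16.3, 25.05 and 24.4 CPM in *R90W/+* (-0.50 ± 0.13), which did not pass when any one of the WT libraries was left out. Replicate A was the lowest mutant library in 18 of the 21 genes and was below all WT libraries in 13, while B and C were both above all WT libraries in 13. Without replicate A, 5 rod genes were higher and 1 lower, and 5 cone genes were higher and 4 lower. The balance of *Xist* and *Kdm5d* moved with replicate A, and its part in these values was not tested.

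**Figure D3:**
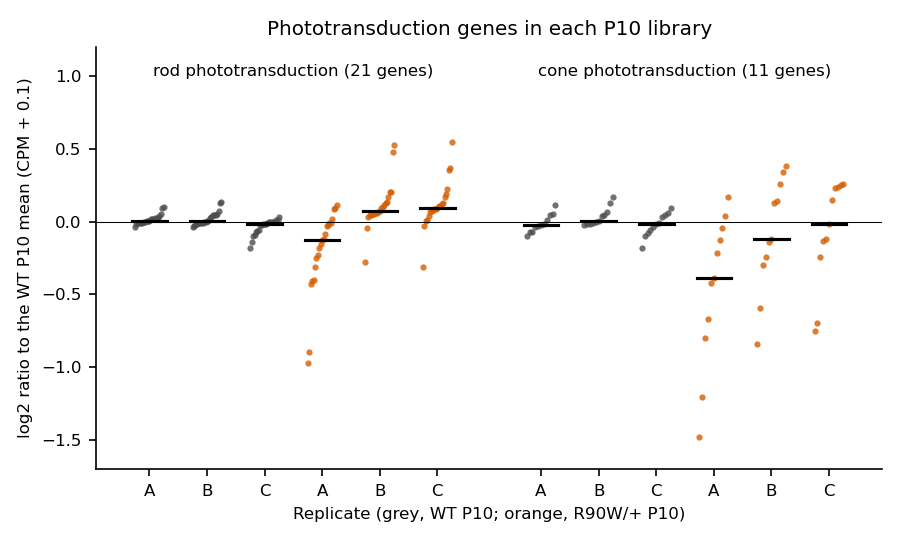
Log2 ratio to the WT P10 mean (y axis) of 21 rod and 11 cone phototransduction genes (points, sorted by value) in each P10 library (x axis, grey WT and orange *R90W/+*), with the median as a bar. The medians of *R90W/+* replicates A, B and C are -0.12, 0.08 and 0.10 for the rod genes and -0.39, -0.12 and -0.01 for the cone genes.

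Genes of the outer segment and its connecting cilium, which hold and supply the visual pigment, included lower and higher genes. Of 35 tested, 10 were lower and 2 higher, beside 6.26% lower and 5.45% higher of all genes, and the median log2 ratio was -0.05. *Rpgrip1*, a scaffold of the connecting cilium, was at 1815, 1957 and 1922 CPM in WT and at 1248, 1403 and 1529 CPM in *R90W/+* (-0.45 ± 0.07, limma FDR = 0.00105). *Nxnl1*, the gene of a rod-derived factor that keeps cones alive, fell from 178, 187 and 172 CPM to 114, 145 and 136 CPM (-0.45 ± 0.07). *Ttc21b*, *Myo7a*, *Gpr98*, *Nxnl2*, *Rp1l1*, *Bbs5* and *Bbs9* were also lower with log2 ratios from -0.44 to -0.16, and *Bbs7* and *Pcdh15* were higher (0.21 and 0.31). The disc proteins *Prph2* and *Rom1* had log2 ratios of 0.02 and 0.09 and did not pass. Leaving out 1 library gave 5 to 10 lower genes, the fewest without WT replicates A or B (5 each) and C (6), and 0 to 4 higher genes, the most without *R90W/+* replicate A.

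Of 21 photoreceptor transcription factors, 4 were lower and 1 higher, beside 6.26% and 5.45% of all genes, with a median log2 ratio of -0.02. Beside *Ppara*, the lower genes were *Mef2c* (20.8, 21.1 and 21.2 CPM in WT and 16.2, 12.9 and 11.9 CPM in *R90W/+*), *Rorb*, a nuclear receptor of early rod development (662, 700.0 and 632 and 549, 526 and 543 CPM), and *Pias3*, a SUMO ligase that acts on rod factors (466, 479 and 468 and 422, 399.5 and 399 CPM). The log2 ratios of *Mef2c*, *Rorb* and *Pias3* were -0.63, -0.30 and -0.21. *Nr1d1*, a clock receptor, was higher (0.37 ± 0.06). *Otx2*, a homeodomain factor upstream of *Crx*, was at 476, 516 and 499.9 CPM in WT and at 635, 545 and 513 CPM in *R90W/+* and did not pass (0.18 ± 0.07, limma FDR = 0.11).

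Of 8 genes of the visual cycle in photoreceptors, *Abca4*, the transporter that clears retinal from discs, was lower (857, 849 and 822 CPM in WT, 591, 702 and 718 CPM in *R90W/+*, log2 ratio -0.34 ± 0.07), and the others did not pass. Of 21 genes of the photoreceptor synapse, *Elfn1*, an adhesion protein, and *Ctbp2*, which encodes a ribbon protein, were lower (-0.41 and -0.21), and the complexin *Cplx3* was higher (0.34). Without *R90W/+* replicate A 6 synapse genes were higher.

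Lists of rod-enriched and cone-enriched genes that the study took from other retinas were mixed. Of 238 rod-enriched genes tested 47 were lower and 19 higher, with a median log2 ratio of -0.05, and of 373 cone-enriched genes 35 were lower and 39 higher, with a median of 0.03, beside 6.26% lower and 5.45% higher of all genes. Leaving out 1 library gave 32 to 51 lower and 10 to 38 higher rod-enriched genes, and 23 to 49 lower and 24 to 59 higher cone-enriched genes. The highest of these counts were those without *R90W/+* replicate A, and without replicate C 10 rod-enriched and 26 cone-enriched genes were higher. Through WT alone 7 rod-enriched and 8 cone-enriched genes reached the filter, and through *R90W/+* alone 3 and 12. At 5 CPM or more in both groups, 42 of 228 rod-enriched genes were lower and 18 higher. For cone-enriched genes 33 of 353 were lower and 38 higher. The study also clustered genes on these same libraries, which is not independent evidence of direction. In its cluster 1, 70 of 136 genes were lower and 1 higher (median -0.29), and in cluster 6, 4 of 108 were lower and 57 higher (median 0.37). The filter favoured these directions, as 20 genes of cluster 1 reached it through WT alone. In cluster 6, 19 genes reached it through *R90W/+* alone. Of the cluster 1 genes at 5 CPM or more in both groups, 53 of 116 were lower and 1 higher. Of those of cluster 6, 1 of 84 was lower and 43 were higher. Without replicate A 14 genes of cluster 1 were higher.

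Several genes of progenitors and dividing cells were lower. Of 18 genes listed only 8 passed the filter on low values, and these do not stand for the list. *Hes5* reached the filter through WT alone, and of the 7 genes at 5 CPM or more in both groups 5 were lower. *Hes5*, a Notch target that keeps cells undifferentiated, was at 9.34, 9.28 and 8.41 CPM in WT and at 4.50, 4.68 and 5.38 CPM in *R90W/+* (-0.88 ± 0.12). *Ccnd1*, which encodes cyclin D1, fell from 43.1, 46.0 and 46.5 CPM to 32.6, 28.0 and 31.7 CPM (-0.56 ± 0.07). Both genes were lower in every mutant library. *Mki67*, *Top2a* and *Mcm5*, which serve cell division, had log2 ratios of -0.57, -0.48 and -0.47, while *Mcm2* and *Pcna* (-0.17 and -0.02) did not pass. With *Hes5* 6 genes were lower, and 4 to 6 when 1 library was left out.

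Of 13 genes of Müller glia and astrocytes, 8 were higher and 0 lower with limma (8 and 1 at an unadjusted p under 0.05). The median log2 ratio was 0.23, and of all genes 5.45% were higher and 6.26% lower. Müller cells span the retina, recycle transmitters and buffer ions and water. *Glul*, glutamine synthetase, was at 507, 455 and 455 CPM in WT and at 696, 874 and 828 CPM in *R90W/+* (0.75 ± 0.07, 95% interval 0.59 to 0.91, limma FDR = 3.91e-05). *Aqp4* (above), *Abca8a* (0.55), the potassium channel *Kcnj10* (0.38), *Car14* (0.32), *Dkk3* (0.27), *Apoe* (0.23) and *Rlbp1*, a retinoid carrier (0.20), were also higher. *Gfap*, *Vim*, *Slc1a3*, *Hes1* and *Sox9* had log2 ratios of -0.06, 0.08, -0.05, 0.05 and -0.21 and did not pass. The list summed to 2034 to 2162 CPM in WT and to 2511 to 2767 CPM in *R90W/+*, and 5 to 8 genes were higher when 1 library was left out, the fewest without WT replicate B.

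Genes of inner retinal neurons included more rises than falls. Of 14 bipolar cell genes, 4 were higher and 1 lower, beside 5.45% higher and 6.26% lower of all genes. *Trpm1*, the cation channel of ON bipolar cells, was at 336, 333 and 334 CPM in WT and at 459.7, 477 and 468 CPM in *R90W/+* (log2 ratio 0.49 ± 0.04, limma FDR = 1.69e-05). *Car8*, *Cabp5* and *Pcp2* were also higher (0.43, 0.33 and 0.26), and *Vsx1*, a homeobox gene of cone bipolar cells, was lower (-0.37). Without replicate A, 9 of the bipolar genes were higher and 2 lower.

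Of 11 amacrine cell genes, 5 were higher and 0 lower with limma, also at an unadjusted p under 0.05. Beside these and the lists that follow, 5.45% of all genes were higher and 6.26% lower. The glutamate decarboxylase gene *Gad1* was at 156, 158 and 153 CPM in WT and at 179, 200.1 and 202 CPM in *R90W/+* (log2 ratio 0.31 ± 0.05), and *Chat*, *Calb2*, *Slc32a1* and *Gad2* had 0.52, 0.35, 0.25 and 0.20. Of 14 ganglion cell genes, *Nefh*, *Thy1* and *Nefl* were higher (0.38, 0.29 and 0.17), and of 6 horizontal cell genes *Calb1* was higher (0.35) and *Onecut2* lower (-0.39). Leaving out 1 library gave 2 to 5 higher amacrine genes (2 without WT replicate B or *R90W/+* replicates B or C, 3 without WT replicates A or C) and 1 to 6 higher ganglion cell genes (1 without WT replicates A or B or *R90W/+* replicate C, 6 without *R90W/+* replicate A). Without *R90W/+* replicate C 0 horizontal cell genes were higher. Without a variance trend in the fit 1 amacrine and 1 ganglion cell gene were higher.

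Genes of the circadian clock formed another group of small rises. Of 17 tested, 7 were higher and 0 lower with limma (10 and 1 at an unadjusted p under 0.05). The median log2 ratio was 0.21, and of all genes 5.45% were higher and 6.26% lower. *Dbp*, an output factor of the clock, was at 23.8, 21.2 and 21.1 CPM in WT and at 32.4, 34.6 and 35.5 CPM in *R90W/+* (0.63 ± 0.07, limma FDR = 0.000136). Its relatives *Hlf* and *Tef* (0.60 and 0.21), the period genes *Per3* and *Per1* (0.41 and 0.22) and the receptors *Nr1d1* and *Nr1d2* (0.37 and 0.30) were higher too. The core activators *Arntl* and *Clock* had -0.05 and 0.04 and did not pass. The hour of collection was not given in the sources used here, so that hour and genotype cannot be told apart.

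**Figure D4:**
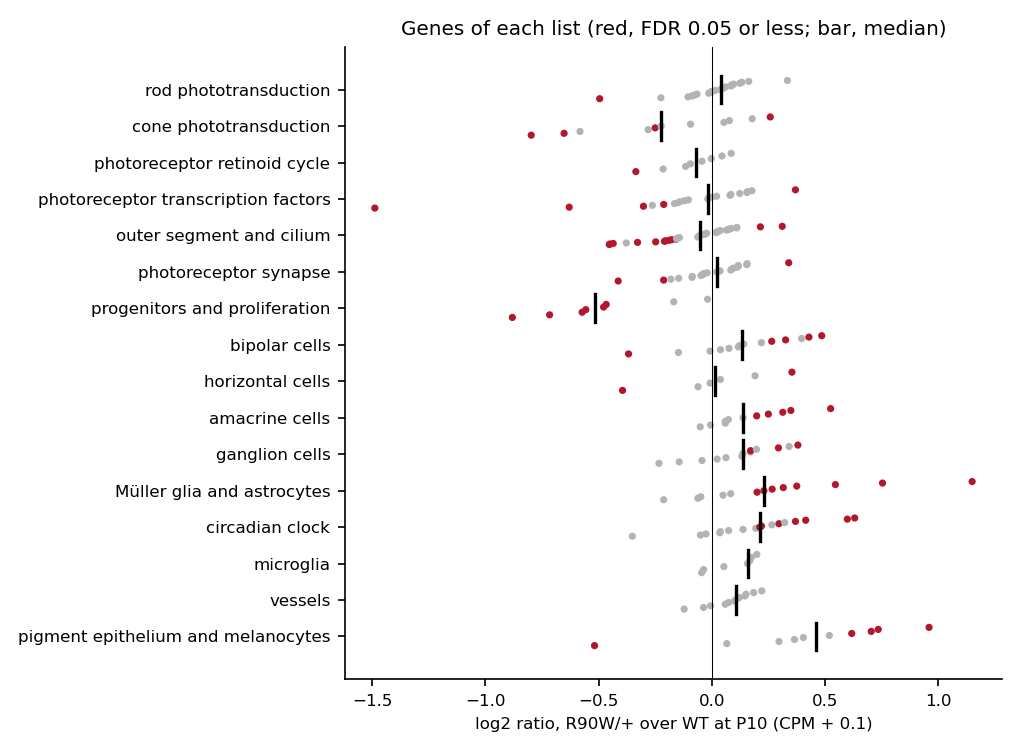
Log2 ratio of *R90W/+* over WT at P10 (x axis) for each tested gene of the lists named on the y axis (points, red at FDR 0.05 or less and grey above it), with the list median as a bar. The 8 progenitor genes tested, 1 of which reached the filter through WT alone, lie to the left (median -0.52), the Müller glia and clock lists to the right (0.23 and 0.21), and the rod list near 0 (0.04).

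Markers of tissue next to the retina moved with the genotype too. Of 10 genes of pigment epithelium and melanocytes tested, *Rgr*, *Dct*, *Ttr* and *Tyrp1* were higher (0.96, 0.74, 0.70 and 0.62) and the keratin *Krt18* was lower (-0.52), beside 5.45% higher and 6.26% lower of all genes. None of the 4 rises passed in limma without a variance trend, and 2 genes of the list were higher without WT replicate B or C. *Rdh5* and *Tyr* of this list reached the filter through *R90W/+* alone and were not called. Of the 18 listed genes 13 were in the table, and these summed to 145 to 221 CPM in WT and to 225 to 300 CPM in *R90W/+*, without overlap. The 10 lens genes in the table summed to 32.7 to 37.2 CPM in WT and to 41.4, 68.3 and 1311 CPM in *R90W/+* A, B and C. The part of pigmented tissue and lens in the rises of other genes was not tested. None of 7 microglia and 12 vessel genes passed with limma, though the vessel genes *Cdh5* and *Rgs5* had an unadjusted p of 0.039 and 0.031, and the list medians were 0.16 and 0.10.

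Immediate early and stress genes showed no common direction. Of 9 immediate early genes, *Egr1* was higher (22.1, 20.9 and 19.03 CPM in WT, 40.6, 32.4 and 28.2 CPM in *R90W/+*, log2 ratio 0.69 ± 0.11) and *Ier3* lower (27.7, 25.4 and 25.7 CPM, 15.4, 15.98 and 16.3 CPM, -0.72 ± 0.07). Of 12 stress genes, only the metallothionein gene *Mt1* passed (0.43 ± 0.11), and not without WT replicate B or C.

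Among called genes under 2-fold without overlap, the 8 with the smallest p in each direction were taken by rule. The lower ones were *Opn1sw*, *Gngt2*, *Wdr66*, *Gm12802*, *Lrp4*, *Rabepk*, *Myrip* and *Cln3*. *Wdr66*, a gene of motile cilia, was close to 2-fold lower (45.2, 49.1 and 48.9 CPM in WT, 23.6, 24.4 and 23.6 CPM in *R90W/+*). *Myrip*, which links myosin VIIa to Rab27, fell from 54.0, 52.5 and 51.2 CPM to 26.4, 31.4 and 31.6 CPM (log2 ratio -0.82 ± 0.07). *Lrp4*, of the low density lipoprotein receptor family, fell from 547, 555 and 584 CPM to 377, 312 and 314 CPM (-0.75 ± 0.07). *Gm12802*, *Rabepk* and the lysosomal gene *Cln3* had log2 ratios of -0.88, -0.69 and -0.53.

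The higher ones were *Glul*, *Trpm1*, *Plk5*, *Fam160a1*, *Tuba4a*, *Gas6*, *Igfn1* and *Camk2b*. *Gas6*, a ligand of the receptors used in the phagocytosis of outer segments, rose from 109.6, 116 and 113 CPM to 150.2, 162 and 168.1 CPM (log2 ratio 0.50 ± 0.05). *Camk2b*, a calmodulin dependent kinase subunit, rose from 219.9, 211 and 222 CPM to 306, 291 and 286 CPM (0.43 ± 0.05). *Plk5*, *Fam160a1*, *Tuba4a* and *Igfn1* had log2 ratios of 0.70, 0.67, 0.62 and 0.81.

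In CPM, the 5 largest falls were in *Rpgrip1*, *Lrp4*, the microtubule protein gene *Mtap1b*, the splicing cofactor *Son* and the histone methyltransferase *Mll2*, and *Glul*, *Trpm1*, *Snhg11* and *Plekhb1* were among the 5 largest rises. *Mtap1b* was at 2159.8, 2273 and 2207 CPM in WT and at 1699, 1749 and 1624 CPM in *R90W/+* (log2 ratio -0.39 ± 0.05). *Son*, *Mll2*, *Snhg11* and *Plekhb1* had log2 ratios of -0.29, -0.31, 0.36 and 0.21.

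*R90W/W* retinas at P10 place these values along the number of mutant alleles. Both mutant groups were compared with the same WT libraries, so the mutants were also compared directly. In that fit 24.9% of 11959 genes differed, 10.3% lower and 14.6% higher in *R90W/W* than in *R90W/+*. Of the 686 lower *R90W/+* genes tested there, 300 (43.7%) were lower still in *R90W/W* and 42 were higher, and of the 654 higher genes 179 (27.4%) were higher still and 22 lower. These genes were chosen with the *R90W/+* libraries that the direct fit also uses.

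The named genes showed different orders of the 3 genotypes. *Opn1sw* was further lower, at 24.3, 26.3 and 29.2 CPM in *R90W/W* (log2 ratio to *R90W/+* -2.19, limma FDR = 1.17e-10), as were *Ppara* (0.266, 0.619 and 0.61 CPM, -3.51) and *Psd2* (37.6, 39.7 and 43.7 CPM, -0.89). *Glul* was at 836, 893 and 773 CPM in *R90W/W* (0.07, 95% interval -0.10 to 0.23), *Aqp4* at 36.4, 41.9 and 30.3 CPM (-0.04, interval -0.28 to 0.20) and *Trpm1* at 480.2, 474 and 452 CPM (0.00, interval -0.09 to 0.09). These 3 direct differences did not pass, and their intervals bound the change between 1 and 2 mutant alleles.

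*Gngt2* went the other way, to 167, 164 and 167.9 CPM in *R90W/W*, above both *R90W/+* (1.65, limma FDR = 7.7e-11) and WT. *Zan*, *Pax7* and *Mc1r* were under the filter of the direct fit, at 0.798, 0.877 and 1.03, 0.638, 0.619 and 0.61 and 0.532, 0.567 and 0.763 CPM in *R90W/W*.

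At P21 fewer genes were called than at P10. With its own WT libraries, *R90W/+* at P21 had 275 genes lower (2.32% of 11856) and 70 higher (0.59%), 2.91% in all. Replicate A of these WT libraries had 3.05 CPM of *Xist*, beside 1503 and 1638 CPM in B and C. Its *Kdm5d* was at 29.9 CPM, beside 23.0 and 20.9 CPM, so that it held almost no RNA of females. This library enters every P21 value below, and without it 160 genes were lower and 26 higher. The part of this imbalance was not tested. Of the 751 genes lower at P10, 670 were tested at P21, of which 534 (79.7%) had a ratio below 0 and 125 (18.7%) passed as lower. Of the 654 higher genes, 646 were tested, of which 414 (64.1%) had a ratio above 0 and 15 (2.32%) passed as higher. Of all 11526 genes tested at both ages 51.9% were below 0 and 48.1% above. Over the genes tested at both ages, the median log2 ratio of the lower genes went from -0.29 at P10 to -0.13 at P21. That of the higher genes went from 0.30 to 0.03. Choosing the genes by their P10 test favours larger ratios at P10 than at P21.

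Replicates A and C of *R90W/+* at P21 were rich in lens RNA, with *Cryaa* at 5772, 115 and 10304 CPM in A, B and C and at 9.32, 5.19 and 5.46 CPM in WT. Without both libraries only replicate B of *R90W/+* was left at P21. In that fit 502 of 674 lower genes were below 0 (median log2 ratio -0.13), and 436 of 647 higher genes were above 0 (median 0.05). Replicate B was not free of lens RNA either, as its lens genes summed to 322 CPM, beside 48.6 to 61.2 CPM in WT. *Bach2* was lower at P10 and higher at P21, and *Apoe*, *Drd4* and *Plekhb1* were higher at P10 and lower at P21.

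Of the 20 genes lower at 2-fold, 11 were tested at P21, 11 had a ratio below 0 and 8 passed. *Zan* was at 88.9, 77.3 and 93.1 CPM in WT and at 9.80, 5.86 and 12.1 CPM in *R90W/+* (log2 ratio -3.27, limma FDR = 0.000205). *Mc1r*, *Dock8*, *Ppara*, *Gckr*, *Kifc1*, *Psd2* and *Rgs20* had log2 ratios of -2.34, -2.03, -1.91, -1.23, -0.88, -0.76 and -0.41. None of the 10 genes higher at 2-fold passed at P21 with limma, 3 of the 9 tested were higher at an unadjusted p under 0.05, and 5 of the 9 were above 0.

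Of the 11 cone genes, 4 were lower at P21 and 0 higher. *Arr3* was at 242, 279 and 285 CPM in WT and at 161, 162 and 131 CPM in *R90W/+* (log2 ratio -0.83, limma FDR = 0.00182), and *Gnat2*, *Gngt2* and *Pde6h* had -0.50, -0.41 and -0.38. *Opn1sw* had -0.59 and did not pass (FDR = 0.076). None of the 21 rod genes passed in either direction with limma, and at an unadjusted p under 0.05 there were 5 lower and 0 higher. *Myo7a*, *Rpgrip1*, *Rorb* and *Mef2c* were lower at both ages (-0.65, -0.49, -0.43 and -0.73 at P21), and *Crx*, *Otx2* and *Neurod1* were higher at P21 (0.31, 0.50 and 0.21).

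The difference of the *R90W/+* effect between the ages was tested in 1 fit of all 12 libraries and passed in 209 of 12325 genes (1.7%), in 1.19% with a lower and in 0.503% with a higher ratio at P21. Of the 654 genes higher at P10, 93 passed, each with a change toward WT or past it, and of the 751 lower genes 50 passed, 45 of them in that direction. The genes were chosen for their P10 ratio, which enters this difference. *Glul* was at 2281, 2157 and 2074 CPM in WT of P21 and at 2104, 2116 and 1853 CPM in *R90W/+*, and *Aqp4* at 85.1, 86.6 and 88.9 CPM and 84.0, 82.2 and 84.5 CPM. *Trpm1*, higher at P10, was at 419, 434 and 417 CPM in WT of P21 and at 335, 372 and 394 CPM in *R90W/+*. Among the Müller glia genes 5 of 13 passed, among the clock genes 3 of 17, and among the 21 rod and 11 cone genes 0 with limma. At an unadjusted p under 0.05 the difference was lower in 4 and higher in 0 rod genes, and lower in 5 and higher in 1 of the cone genes.

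**Figure D5:**
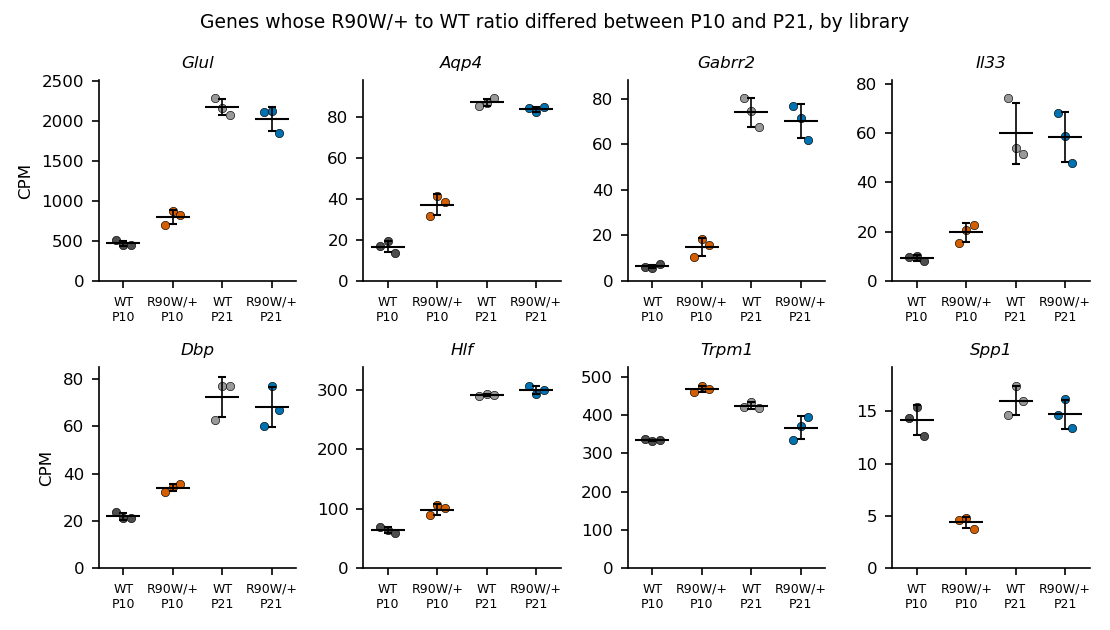
CPM in each library (points) of 8 genes whose *R90W/+* to WT ratio differed between P10 and P21, with the mean and SD of 3 libraries. At P10 the *R90W/+* points lie above WT in all but *Spp1*, where they lie below, and at P21 the groups overlap except in *Aqp4* and *Trpm1*, where *R90W/+* lies below WT.

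The upstream windows of called genes were searched because CRX binds sites with a core of TAATCC or TAATCT. RefSeq promoters (GRCm38.p6 table) were matched for 8525 of the 11995 genes, with 1 window of 250 bases before the start each, and both strands were searched. TAATCC was present in 37 of 495 windows of lower genes (7.47%), in 35 of 462 of higher genes (7.58%), in 5.22% of those of all tested genes and in 6.38% of all 27025 windows. Either core was present in 12.7%, 11.5%, 9.06% and 13.1% of them. Of 14 windows of genes lower at 2-fold 2 held either core, and of 7 windows of cone phototransduction genes 3 did. The windows of *Opn1sw*, *Gnat2* and *Mc1r* are printed because these lower genes each held a match, given 5′ to 3′ on the strand of the gene with the match in capitals. By exact match to NCBIM37 they lie at chr6:29330514-29330763 (minus strand), chr3:107895734-107895983 (plus strand) and chr8:125930732-125930981 (plus strand).

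*Opn1sw*: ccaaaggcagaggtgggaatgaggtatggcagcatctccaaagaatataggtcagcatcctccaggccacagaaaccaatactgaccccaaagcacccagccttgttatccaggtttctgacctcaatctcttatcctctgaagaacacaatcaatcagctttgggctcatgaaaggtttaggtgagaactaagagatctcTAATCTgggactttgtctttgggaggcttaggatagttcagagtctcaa

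*Gnat2*: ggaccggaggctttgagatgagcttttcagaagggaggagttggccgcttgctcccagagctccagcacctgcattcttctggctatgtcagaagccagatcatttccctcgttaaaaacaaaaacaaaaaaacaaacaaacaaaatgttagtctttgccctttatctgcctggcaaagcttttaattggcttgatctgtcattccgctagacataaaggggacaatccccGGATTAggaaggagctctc

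*Mc1r*: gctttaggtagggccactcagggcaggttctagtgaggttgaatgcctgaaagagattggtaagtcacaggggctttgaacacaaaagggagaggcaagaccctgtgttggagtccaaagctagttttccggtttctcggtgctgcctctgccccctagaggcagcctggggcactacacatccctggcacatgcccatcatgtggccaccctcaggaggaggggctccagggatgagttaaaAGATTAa

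The match in *Opn1sw* reads TAATCT on the strand of the gene, and those in *Gnat2* and *Mc1r* read TAATCC and TAATCT on the opposite strand. A match describes letters and not binding, which was not measured in these libraries.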

How the data were processed

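RNA of whole retinas was sequenced as single reads. Per the study's methods, the authors aligned the reads with TopHat2 2.0.5 to mm9, counted them on UCSC genes with HTSeq 0.6.1p1 and deposited CPM of the genes that reached 5 CPM in each replicate of some group. The labels name ribosomal RNA depletion and the methods poly(A) selection, and strand was not stated. The table also holds log2 fold changes, mean log2 CPM, p-values and FDR values from the authors' edgeR 3.6.8 comparisons, which were not used. All per-sample columns were matched to samples by title, and 20 symbols that read as dates were not named.

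Each comparison was fitted alone on log2(CPM + 0.1) with limma 3.58.1 in R 4.3.3 (empirical Bayes with a variance trend, two-sided, Benjamini-Hochberg over all genes tested, no block), for genes at 5 CPM or more in all 3 libraries of either group. Replicates were pools of different mice, so p-values measure the spread between 3 pools. Fold changes are on the log2(CPM + 0.1) scale, which understates those of low genes. Depth was estimated from the CPM of 1 read and covers counting error only. The members and lists were chosen with earlier results of these data known. Genes named were all 2-fold calls, members of the lists, the 8 smallest p in each direction among non-overlapping calls under 2-fold, the 5 largest rises and falls in CPM, and genes the study names, of which some are not reported here. *Xist*, *Kdm5d*, *Cryaa*, *Bach2* and *Drd4* were named after their values were seen. Alternatives changed the value added, the unit (limma-voom on rebuilt reads), filter, scaling, libraries in the fit, variance model and block. Promoters were RefSeq windows placed by exact match in mm9.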

Additional observations from a re-analysis of the deposited data

Results flagged for a closer look

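The *R90W/+* effect differed between P10 and P21 in 209 of 12325 genes by the test of the difference itself (limma FDR of 0.05 or less in 1 fit of 12 libraries). The values below are the log2 ratio at P21 minus that at P10 for genes named here among them, which were called at P10 and so chosen on a value that enters the difference. Replicates A and C of *R90W/+* at P21 held much lens RNA and replicate B held some, and its part was not tested.

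Genes of Müller glia and their surroundings had lower ratios at P21, namely *Aqp4* (-1.21), *Il33* (-1.10), *Glul* (-0.86), *Apoe* (-0.48), *Car14* (-0.41) and *Rlbp1* (-0.35). Genes of inner retinal neurons and synapses did too, namely *Gabrr2* (-1.26), *Trpm1* (-0.70), *Car8* (-0.64), *Nefh* (-0.49) and *Cplx3* (-0.49), as did the clock genes *Dbp* (-0.72), *Hlf* (-0.56) and *Per3* (-0.41). The connective tissue collagen *Col3a1* had the largest difference (-1.93), but it was under 5 CPM at P21 in 1 WT and all 3 *R90W/+* libraries and was not tested at P21 alone. At P10 *Col3a1* reached the filter through *R90W/+* alone, which favours a rise at P10 and so a lower ratio at P21. The remaining lower ratios were those of *Fam160a1* (-0.86), *Igfn1* (-0.67), *Adamts5* (-0.56), *Plekhb1* (-0.48), *Nebl* (-0.46), *Plk5* (-0.45), *Tuba4a* (-0.44), *Pcdh15* (-0.44), *Camk2b* (-0.39) and *Gas6* (-0.38). Higher ratios at P21 were those of the progenitor gene *Ccnd1* (0.84) and of *Cln3* (0.46), *Lrp4* (0.60), *Rabepk* (0.63), *Gm12394* (1.02), *Gm17327* (1.03), *Psd2* (1.04), *Gm13301* (1.30), *4921511H03Rik* (1.30) and *Spp1* (1.54). Of these *Gm12394*, *Gm13301* and *4921511H03Rik* were also under the filter at P21 and entered only through P10.

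Markers of other tissue moved with the ages too. The 13 genes of pigment epithelium and melanocytes summed to 398 to 710 CPM in WT and to 178 to 496 CPM in *R90W/+* at P21, and the median log2 ratio of the 10 tested went from 0.46 at P10 to -0.64 at P21. That of 12 vessel genes went from 0.10 to -0.21. Of the 10 pigment genes, *Rdh5* and *Tyr* reached the filter at P10 through *R90W/+* alone, and the other 8 had a P10 median of 0.57. At an unadjusted p under 0.05 the ratio was lower at P21 in 5 of the 10 pigment genes and 7 of the 12 vessel genes. Their part in the differences above was not tested.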

How the results depend on the processing

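Every one of the 125 P10 calls selected by the naming rule kept its direction under all alternatives run, and 0 to 33 of them no longer passed under a given one. Where the groups do not overlap, leaving out a library cannot turn the direction. That held for 744 of the 751 lower and 644 of the 654 higher calls, so the kept direction is no support of its own. Among genes that did not pass in the reported fit, *Opn1mw* and *Rcvrn* turned from -0.28 and -0.01 to 0.32 and 0.19 without *R90W/+* replicate A, and ranged down to -0.61 and -0.12 when another library was left out. Leaving out each library in turn gave 408 to 1078 lower and 344 to 1062 higher genes at P10, 18 to 23 lower and 6 to 20 higher at 2-fold, 107 to 333 lower and 14 to 133 higher at P21, and 58 to 300 lower and 23 to 115 higher for the difference between ages. The highest P10 counts were without *R90W/+* replicate A, and the cause was not tested. Genes higher at 2-fold numbered 5 with 1 CPM added, 17 with a filter of 1 CPM and 18 with no filter, the last 2 with more genes tested. Without a variance trend 417 genes were higher at P10. Without both lens-rich P21 libraries, an alternative chosen after seeing the data, 165 genes were lower at P21, and 45 lower and 35 higher for the difference, with fewer samples in the fit. Without X and Y genes, also added later, 1379 genes were called. Lower genes were 53.5% of calls, and 50.4% to 60.8% when a library was left out.

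With the replicate letter as a replicate block, 652 genes were lower and 566 higher at P10 (20 and 11 at 2-fold), 258 and 64 at P21, and 121 and 53 for the difference. Over all tested genes, same-lettered WT and *R90W/+* libraries of P10 did not deviate together (correlations of -0.05, -0.14 and -0.10 for A, B and C). The 14 genes of the mitochondrial genome summed to 24350, 24957 and 22246 CPM in WT A, B and C. In *R90W/+* they summed to 28411, 26108 and 22717 CPM, so that replicate C was the lowest in both groups. Whether a letter stands for a shared batch was not tested. The planned edgeR test was not run. In its place, and chosen after seeing the data, limma-voom was run on whole reads rebuilt from the CPM of 1 read. All values tested came out whole within 0.1 of a read (100%), and 740 genes were lower and 646 higher at P10, 20 and 10 at 2-fold, with 3 of the 125 calls lost. The precision is limited by 3 libraries a group, and 5 CPM is 69.5 to 101 reads.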
